A study of Arabidopsis thaliana with 18 samples.

Results

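Dehydrins, the COR15 pair and other late embryogenesis abundant (LEA) proteins were followed through 6 groups of RNA from Arabidopsis thaliana seedlings. The set held 8 genes chosen by name: the dehydrins COR47 (AT1G20440), AtHIRD11 (AT1G54410) and LTI30 (AT3G50970), the chloroplast proteins COR15A (AT2G42540) and COR15B (AT2G42530), and the LEA proteins LEA4-5 (AT5G06760), LEA18 (AT2G35300) and M17 (AT2G41260). Each was measured by 1 probe set, so that the set made up 8 of the 22746 probe sets tested. The names were drawn up with results of these arrays in view. For COR47 and AtHIRD11 the values behind the choice were the differences between polysomal and non-polysomal RNA in the wild type, and for the other genes these values are not recorded. Differences between the fractions are therefore given for the 8 genes as a description, with no test, and the comparisons between genotypes are tests that do not stand as independent support.

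LEA proteins are small, very hydrophilic and largely unstructured proteins that build up in maturing seeds and, in leaves and roots, under drought, salt and cold. Dehydrins are the LEA group defined by a lysine-rich segment, with which they can bind membranes, and COR15A and COR15B are LEA-type proteins of the chloroplast stroma that protect membranes during freezing. A transcript in translation carries several ribosomes and sinks in a sucrose gradient with the polysomes, whereas a transcript with few or none stays near the top. GCN2 is a protein kinase that phosphorylates the initiation factor eIF2 when free amino acids run short, which lowers translation initiation.

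The arrays were Affymetrix ATH1 arrays hybridized with RNA from the aerial parts of seedlings of the line Landsberg erecta, either wild type or gcn2, at an age of 10 days. Both genotypes grew at 22 °C on agar plates (0.8%) of GM medium, whose sucrose was 1%, under 16 h of light a day and were frozen 4 h after the light came on. From each genotype came 3 arrays of total RNA, 3 of polysomal RNA (the bottom 6 fractions of a sucrose gradient, pooled) and 3 of non-polysomal RNA (the top 6 fractions, pooled), 18 arrays in all. The labels name no stress or starvation treatment. The sources used here give neither the gcn2 allele nor the number of plants per replicate. The line carries erecta in both genotypes. GCN2 itself and ERECTA were not analysed here, so that the genotype labels were not checked on the arrays.

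Values are the deposited log2 expression values, on which a difference of 1 is a doubling. The array medians lay between 5.05 and 5.18 and the lower quartiles between 3.21 and 3.52. All arrays share this scale, so that a gene's value in a fraction is relative to the other transcripts of that fraction, and the amount of RNA in a fraction is not seen. Centring each array on 10 hybridization control probe sets (BioB and BioC) instead moved polysomal minus non-polysomal differences of all probe sets by a median of 0.94 in the wild type and 0.85 in gcn2, and differences between genotypes in polysomal RNA by −0.25, so that differences below are relative to the other transcripts. In such bulk RNA, fewer cells that express a gene and less RNA per cell cannot be told apart. No 2 of the 18 arrays were identical (0 of 153 pairs), and arrays of 1 group correlated at 0.974 to 0.994. Replicate numbers paired the fraction arrays: arrays of the same number deviated from their group means in the same direction, with all 18 correlations among the fraction groups between 0.184 and 0.588. For total RNA, 14 of 24 correlations with the fractions were over 0.1, in a range of −0.168 to 0.404. Those below 0 were all of gcn2 total RNA. Comparisons between genotypes within a fraction are therefore given both without the number (12 residual degrees of freedom) and with that number as a blocking term, fitted to the 12 fraction arrays (6 residual degrees of freedom). Fractions of the same genotype and number are read here as 1 gradient. The blocked fit treats them as independent beyond the number, so its errors and p-values within a fraction may be too small.

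The dehydrins COR47 and AtHIRD11 had far higher levels in polysomal than in non-polysomal RNA in both genotypes. COR47 is an acidic dehydrin that accumulates in the cold. Its log2 levels in wild-type polysomal RNA were 9.06, 9.91 and 9.86 in replicates 1, 2 and 3, against 7.35, 7.86 and 7.85 in wild-type non-polysomal RNA. In gcn2 the polysomal arrays read 9.06, 9.26 and 9.39 and the non-polysomal arrays 7.29, 7.34 and 7.61. Every polysomal array thus lay above every non-polysomal array, and the means of total RNA lay in between, with arrays at 8.58, 9.09 and 8.60 in the wild type and 9.09, 9.02 and 8.76 in gcn2. The log2 difference between polysomal and non-polysomal RNA, called loading below, was 1.92 (SE 0.21), a 3.79-fold difference, in the wild type and 1.82 (SE 0.21), or 3.54-fold, in gcn2. The individual gradients gave 1.71, 2.05 and 2.01 in the wild type and 1.76, 1.92 and 1.79 in gcn2.

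AtHIRD11, a small histidine-rich dehydrin that binds metal ions, had a mean of 12.35 ± 0.20 (SD, n = 3) in wild-type polysomal RNA. Its polysomal arrays read 12.15, 12.34 and 12.56 in the wild type and 12.06, 12.01 and 12.29 in gcn2. The non-polysomal arrays read 9.87, 9.94 and 10.69 in the wild type and 10.03, 10.28 and 10.17 in gcn2. The fractions did not overlap in either genotype. Total RNA lay near the non-polysomal level in the wild type, at 10.54, 10.89 and 10.14. In gcn2 it lay between the fractions, at 11.08, 10.93 and 10.96. Loading was 2.18 (SE 0.20) in the wild type, or 4.54-fold, the largest of the 8 genes there, and 1.96 (SE 0.20), or 3.90-fold, in gcn2. In the order of group means, both polysomal groups overlapped each other and stood clear of gcn2 total RNA, which stood clear of wild-type total RNA.

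LTI30, a basic dehydrin of cold-treated tissue that binds membranes, was less uniform between replicates. Its wild-type polysomal arrays read 6.10, 4.90 and 4.55 and its wild-type non-polysomal arrays 3.89, 4.12 and 3.81. In gcn2 the polysomal arrays read 6.87, 5.99 and 5.57 and the non-polysomal arrays 4.45, 3.78 and 3.92. The fractions did not overlap in either genotype, but the polysomal array of replicate 1 was the highest in both. Loading was 1.25 (SE 0.37) in the wild type and 2.09 (SE 0.37) in gcn2. The wild-type value rested largely on gradient 1, which gave 2.21 against 0.78 and 0.75 in the other gradients, and it was 0.76 without number 1. In gcn2 the 3 gradients gave 2.42, 2.21 and 1.65. Total RNA of LTI30 overlapped polysomal RNA, at 5.87, 5.27 and 6.57 in the wild type and 5.53, 5.87 and 5.38 in gcn2.

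**Figure D1:**
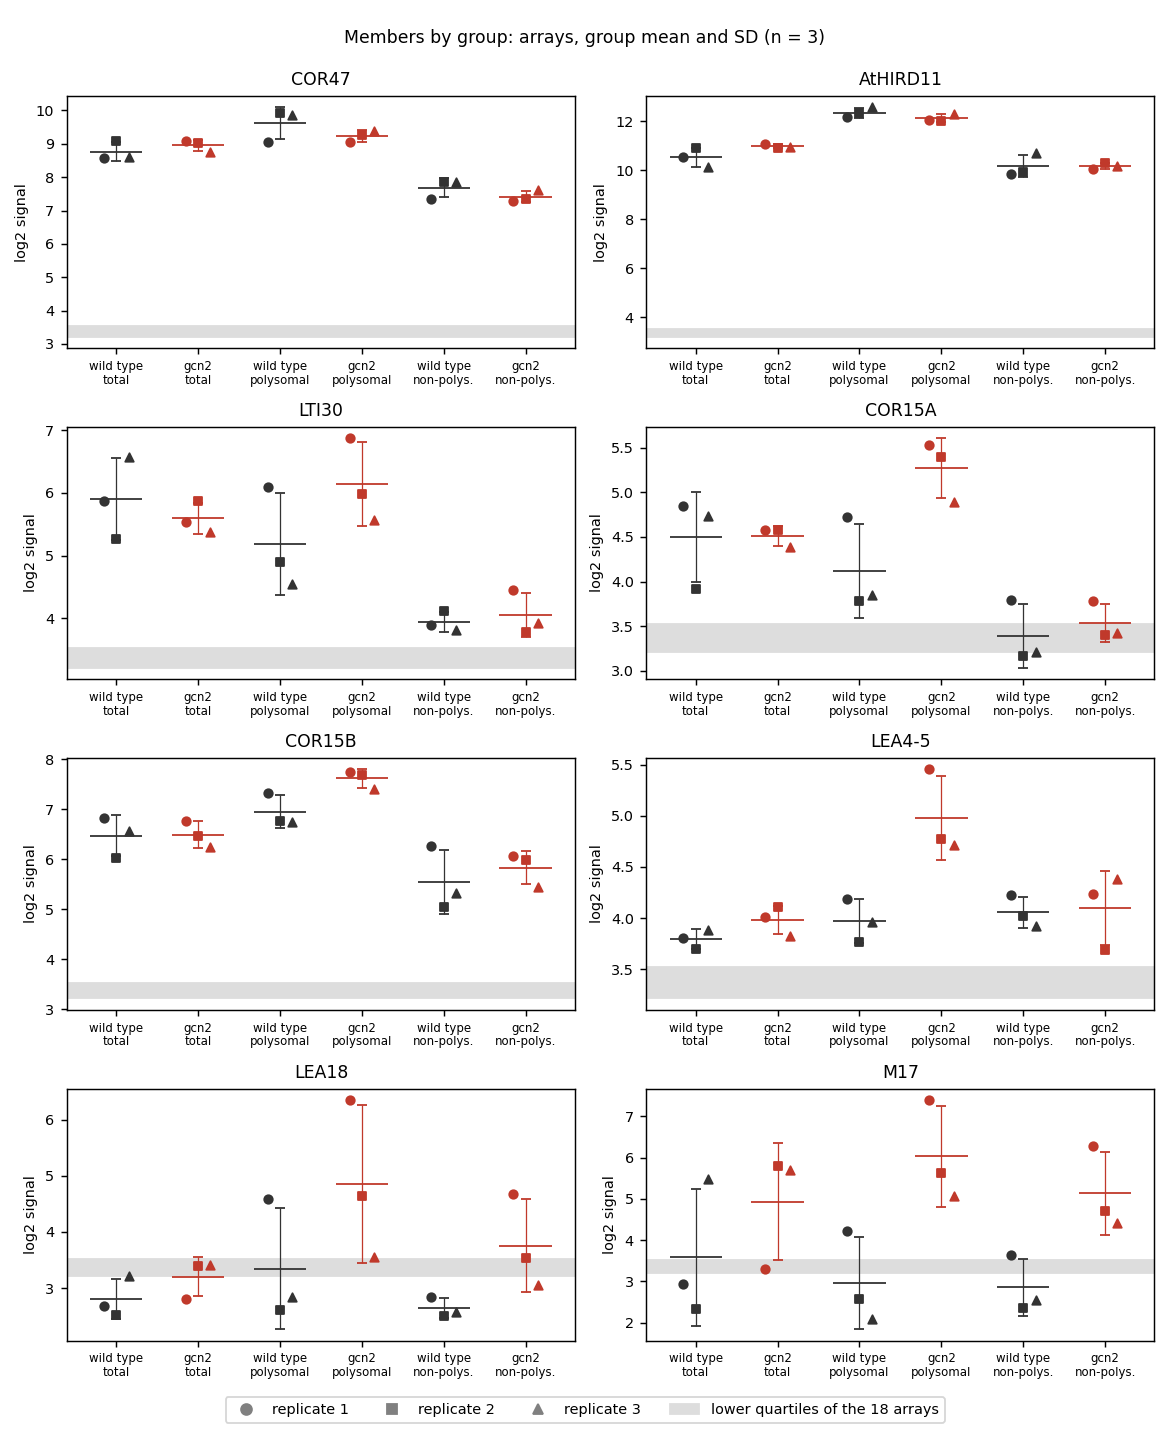
Log2 expression of the 8 genes on each array (points) with the group mean and its SD (lines), in total, polysomal and non-polysomal RNA of wild-type and gcn2 seedlings, 3 arrays per group; the grey band spans the arrays' lower quartiles. COR47 and AtHIRD11 have similar polysomal readings in both genotypes, whereas all gcn2 polysomal arrays of COR15A, COR15B, LEA4-5 and M17 lie above the wild-type ones.

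COR15A and COR15B are neighbours on chromosome 2 in the TAIR10.1 annotation, with 0 coding genes between them, and are close copies of each other. How far one transcript can bind the other gene's probes was not tested. Both were higher in polysomal than in non-polysomal RNA, and in both the gcn2 polysomal arrays lay above all wild-type polysomal arrays. COR15A read 4.73, 3.78 and 3.85 in wild-type polysomal RNA and 5.53, 5.39 and 4.89 in gcn2 polysomal RNA. The non-polysomal arrays read 3.80, 3.16 and 3.21 in the wild type and 3.78, 3.40 and 3.42 in gcn2, and 3 of the 18 arrays were below the lower quartile of their array. In the wild type the fractions overlapped, because polysomal replicate 2 lay just under non-polysomal replicate 1, and in gcn2 they did not. Loading of COR15A was 0.73 (SE 0.26) in the wild type, or 1.66-fold, and 1.74 (SE 0.26), or 3.33-fold, in gcn2. It was 0.43 in the wild type without polysomal replicate 1, which leaves gradient 1 with its non-polysomal array alone. The gradients gave 0.93, 0.62 and 0.64 in the wild type and 1.75, 1.99 and 1.47 in gcn2.

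COR15B read 7.32, 6.77 and 6.75 in wild-type polysomal RNA and 7.75, 7.69 and 7.41 in gcn2 polysomal RNA. Its non-polysomal arrays read 6.26, 5.04 and 5.33 in the wild type and 6.06, 5.99 and 5.44 in gcn2. The fractions were separate in both genotypes, with a loading of 1.40 (SE 0.28) in the wild type and 1.79 (SE 0.28) in gcn2, 2.65-fold and 3.45-fold. The gradients gave 1.06, 1.73 and 1.43 in the wild type and 1.69, 1.70 and 1.96 in gcn2. Total RNA of both genes was alike in the genotypes: COR15A had a mean of 4.50 ± 0.50 in the wild type and 4.51 ± 0.11 in gcn2, and COR15B 6.47 ± 0.41 and 6.49 ± 0.27 (SD, n = 3 each).

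LEA4-5, LEA18 and M17 had readings near the bottom of the scale in the wild type, and in all 3 the gcn2 polysomal group had the highest mean. LEA4-5 belongs to a LEA group that accumulates in drought and in seeds. Its wild-type polysomal arrays (4.19, 3.77 and 3.96) lay among its non-polysomal arrays (4.22, 4.02 and 3.93). In gcn2 the polysomal arrays read 5.46, 4.77 and 4.71 and the non-polysomal arrays 4.23, 3.69 and 4.38, with no overlap. Loading was −0.08 (SE 0.20) in the wild type, or 0.85 when centred on the controls, and 0.88 (SE 0.20), or 1.84-fold, in gcn2. The wild-type gradients gave −0.04, −0.25 and 0.04 and the gcn2 gradients 1.22, 1.08 and 0.33. The other 5 groups of LEA4-5 were close together, with means from 3.79 ± 0.10 in wild-type total RNA to 4.10 ± 0.36 in gcn2 non-polysomal RNA (SD, n = 3).

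LEA18, of the same LEA group, was below the lower quartile of the array on 10 of 18 arrays. It read 4.58, 2.61 and 2.84 in wild-type polysomal RNA and 2.85, 2.51 and 2.58 in wild-type non-polysomal RNA. In gcn2 it read 6.35, 4.65 and 3.56 in polysomal and 4.67, 3.54 and 3.05 in non-polysomal RNA. Replicate 1 was the highest in each of these 4 groups, and the fractions overlapped in both genotypes. Loading was 0.70 (SE 0.56) in the wild type and 1.10 (SE 0.56) in gcn2. Gradient 1 gave 1.73 in the wild type against 0.10 and 0.26 in the others, and without number 1 in all groups the values were 0.18 and 0.81. Without polysomal replicate 1 alone the wild-type value was 0.08, and without polysomal replicate 2 it was 1.07. The gcn2 value was 0.35 without polysomal replicate 1 and 1.75 without polysomal replicate 3. Leaving out 1 array unmatches the fractions of its gradient, and the gcn2 gradients themselves gave 1.68, 1.11 and 0.51.

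M17, a LEA gene of maturing seeds, had the widest range of the 8 genes. It was below the lower quartile on 6 of 18 arrays. Its wild-type arrays read 4.23, 2.58 and 2.08 in polysomal and 3.65, 2.35 and 2.56 in non-polysomal RNA. Its gcn2 arrays read 7.40, 5.63 and 5.07 in polysomal and 6.28, 4.71 and 4.42 in non-polysomal RNA. In both fractions every gcn2 array exceeded every wild-type array, and within a genotype the fractions overlapped. Loading was 0.11 (SE 0.82) in the wild type and 0.90 (SE 0.82) in gcn2. The gradients gave 0.58, 0.23 and −0.48 in the wild type and 1.12, 0.92 and 0.65 in gcn2. The means moved more when single arrays were left out. That unmatches the fractions of a gradient, and M17 levels differed widely between numbers. Leaving out 1 array at a time gave −0.52 (without polysomal replicate 1) to 0.55 (without polysomal replicate 3) in the wild type. In gcn2 it gave 0.21 and 1.38 without polysomal replicates 1 and 3, and 1.47 and 0.54 without non-polysomal replicates 1 and 3. Total RNA of M17 was scattered, at 2.94, 2.33 and 5.48 in the wild type and 3.30, 5.80 and 5.69 in gcn2, and the genotypes overlapped.

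Over the 8 genes the median loading was 0.99 in the wild type, with 7 of 8 above 0, and 1.76 in gcn2, with 8 of 8 above 0. Over all probe sets the medians were −0.07 and −0.04, with 41.6% and 45.6% above 0. In the wild type 4 of 8 genes (COR47, AtHIRD11, LTI30 and COR15B) had all polysomal arrays above all non-polysomal arrays, as had 20% of all probe sets. In gcn2 this was so for 6 of 8, all except LEA18 and M17, against 19.3% of all probe sets. The loading values were part of the choice of COR47 and AtHIRD11 and may have been for the other genes, so nothing is read from these counts. By gradient, the median of the 8 genes was 1.38, 0.70 and 0.69 in the wild type and 1.72, 1.72 and 1.56 in gcn2. The wild-type median was 0.70 without number 1 in all groups, while that of gcn2 was 1.78. Not all genes followed this pattern. COR47 had its lowest polysomal arrays in replicate 1, as had AtHIRD11 in the wild type. The loading of COR15B was lowest in gradient 1, at 1.06 in the wild type and 1.69 in gcn2.

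**Figure D2:**
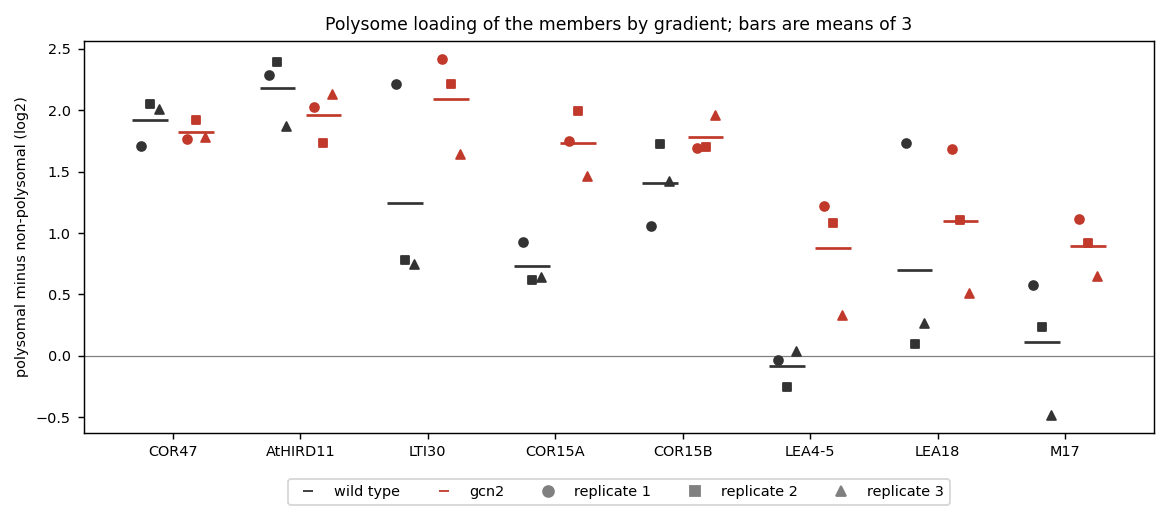
Loading (polysomal minus non-polysomal log2 level) of each gene in each of 3 gradients per genotype, with points for single gradients and a line for the mean. COR47 and AtHIRD11 lie between 1.71 and 2.40 in all 6 gradients. All gcn2 gradients of COR15A, LEA4-5 and M17 lie above all of their wild-type gradients. The share of all probe sets that do so was not counted, and none of these loading differences passed in limma.

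The study's comparison of the genotypes asks whether transcripts differ between gcn2 and the wild type in total RNA and in the 2 gradient fractions. In polysomal RNA, 6 of the 8 genes read higher in gcn2, and COR47 and AtHIRD11 read lower. M17 was higher by 3.07 on the log2 scale (SE 0.82), LEA18 by 1.51 (SE 0.56), COR15A by 1.15 (SE 0.26), LEA4-5 by 1.01 (SE 0.20), LTI30 by 0.96 (SE 0.37) and COR15B by 0.67 (SE 0.28). COR47 differed by −0.37 (SE 0.21) and AtHIRD11 by −0.23 (SE 0.20). The median of the 8 genes was 0.98, and that of all probe sets was 0.02. In COR15A, COR15B, LEA4-5 and M17, 4 of 8 genes, all 3 gcn2 arrays lay above all 3 wild-type arrays, as they did for 7.75% of all probe sets.

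Without the replicate number, limma called 0 of the 8 genes in polysomal RNA, where it called 0.022% of all probe sets. The lowest adjusted p-values in that limma fit were 0.126 for LEA4-5, 0.358 for COR15A and 0.589 for M17. At an unadjusted p under 0.05 the same fit counted 6 of 8 genes, against 5.39% of all probe sets. With the blocking term, fitted to the 12 fraction arrays, limma called 4 of 8 genes, all higher in gcn2, against 0.558% of all probe sets. Its adjusted p-values were 1.26e-07 for M17 (SE 0.18), 0.00114 for COR15A (SE 0.15), 0.00582 for LEA4-5 (SE 0.16) and 0.0297 for LEA18 (SE 0.30). LTI30 (0.0711), COR15B (0.136), COR47 (0.354) and AtHIRD11 (0.651) did not pass in that blocked limma fit. The block in a fit of all 18 arrays gave 2 of 8 (0.0659% of all probe sets) and array weights gave 3 of 8 (0.615%). Over all alternatives run, adjusted p ranged from 1.26e-07 to 1.000 for M17, from 0.00114 to 1.000 for COR15A, from 0.00485 to 0.903 for LEA4-5 and from 0.0297 to 1.000 for LEA18.

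The blocked fit turns on the differences between arrays of the same number. For M17 these were 3.17, 3.05 and 2.99, nearly the same in each pair although the arrays themselves spanned more than 2 log2 units within a genotype. COR15A differed by 0.80, 1.61 and 1.04, LEA4-5 by 1.27, 1.01 and 0.75, and LEA18 by 1.77, 2.04 and 0.72. LTI30 gave 0.77, 1.09 and 1.02, and COR15B 0.43, 0.92 and 0.65. All 3 pairs were thus higher in gcn2 for 6 of 8 genes, as for 21.5% of all probe sets. When 1 number at a time was left out of the blocked limma fit, 3 residual degrees of freedom remained. The share of all probe sets called in those fits is not given here. M17 passed in 3 of 3 of them, with adjusted p from 1.77e-06 to 4.24e-04. COR15A and LEA18 passed in 2 of 3 and not without number 2 (adjusted p = 0.143 and 0.596 in limma). LEA4-5 passed in 1 of 3, with adjusted p = 0.0601 without number 1 and 0.192 without number 2 in limma, and LTI30 passed without number 1 (0.0121).

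**Figure D3:**
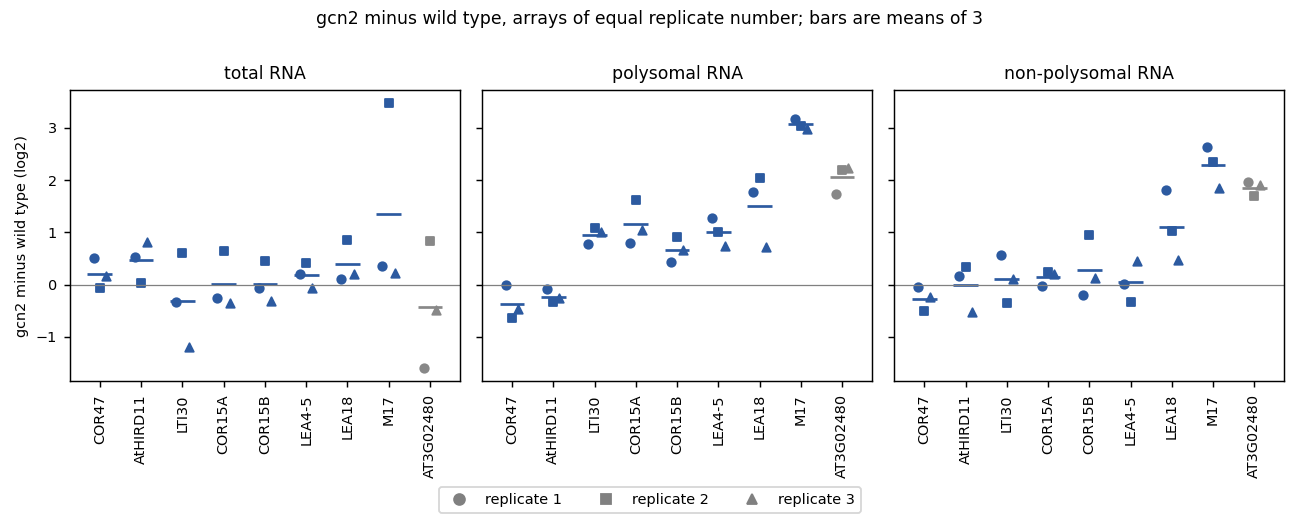
Difference between gcn2 and wild type (log2) of each gene in total, polysomal and non-polysomal RNA, with AT3G02480 in grey; points are pairs of arrays of the same replicate number and lines their means. In polysomal RNA the means of the 6 genes other than COR47 and AtHIRD11 lie between 0.67 and 3.07; in non-polysomal RNA LEA18 (1.11) and M17 (2.28) stand apart from the other 6.

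In non-polysomal RNA the higher gcn2 readings were those of M17 and LEA18. M17 was higher by 2.28 (SE 0.82) and LEA18 by 1.11 (SE 0.56), and for both, 2 of 8 genes, all gcn2 arrays lay above all wild-type arrays, as for 6.5% of all probe sets. The other 6 genes lay between −0.27 for COR47 and 0.29 for COR15B, with COR15A at 0.14, LTI30 at 0.11, LEA4-5 at 0.05 and AtHIRD11 at −0.01. Without the replicate number, limma called 0 of 8, against 0.0791% of all probe sets, with adjusted p = 0.279 for M17 and 0.475 for LEA18, and 1 of 8 had an unadjusted p under 0.05, against 11.4% of all probe sets. With the block on 12 arrays, limma called M17 alone (1 of 8, SE 0.18, adjusted p = 2.02e-06), against 1.89% of all probe sets, and LEA18 had an adjusted p of 0.0675. The pairs of M17 differed by 2.64, 2.36 and 1.86. It passed in 3 of 3 limma fits without 1 number (adjusted p from 7.89e-06 to 0.0024), whose share of all probe sets called is not given. Over all alternatives its adjusted p ranged from 2.02e-06 to 0.534 in limma.

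In total RNA none of the 8 genes was called by limma (0 of 8, against 0.0352% of all probe sets), and 1 had an unadjusted p under 0.05, against 2.49%. That gene was AtHIRD11, higher in gcn2 by 0.46 (SE 0.20, unadjusted p = 0.0343 in limma), with all gcn2 arrays above all wild-type arrays, which held for 3.4% of all probe sets. COR47 differed by 0.20 (SE 0.21), COR15A by 0.01 (SE 0.26), COR15B by 0.02 (SE 0.28), LEA4-5 by 0.19 (SE 0.20), LEA18 by 0.39 (SE 0.56) and LTI30 by −0.31 (SE 0.37). M17 differed by 1.35 (SE 0.82), and its pairs gave 0.36, 3.47 and 0.22, so that number 2 set the mean. The median of the 8 genes was 0.19.

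Whether the genotype difference was larger in polysomal than in total RNA was tested as a contrast of its own, chosen after the data had been seen. Limma called 0 of 8 genes, and 0% of all probe sets, and 4 of 8 had an unadjusted p under 0.05, against 4.07% of all probe sets. The log2 values were 1.27 (SE 0.52) for LTI30, 1.14 (SE 0.37) for COR15A, 0.82 (SE 0.28) for LEA4-5 and −0.69 (SE 0.29) for AtHIRD11, each with an adjusted p of 0.975 in limma. M17 (1.72, SE 1.16) and LEA18 (1.12, SE 0.79) had larger values with larger errors. Not every total RNA array went with the fraction arrays of its number, so that no blocked value is given.

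Loading in gcn2 minus loading in the wild type was positive for the same 6 genes, and none of the 8 genes passed in any fit run. Limma on 18 arrays called 0 of 8, against 0.0044% of all probe sets, and 2 of 8 had an unadjusted p under 0.05, against 5.06%. These were COR15A, with a difference of 1.01 (SE 0.37, 95% interval 0.22 to 1.79, adjusted p = 0.920), and LEA4-5, with 0.96 (SE 0.28, 0.38 to 1.54, adjusted p = 0.827). For COR47 the difference was −0.10 (95% interval −0.73 to 0.53) and for AtHIRD11 −0.22 (−0.82 to 0.38). LTI30 (0.85, −0.25 to 1.95), COR15B (0.38, −0.44 to 1.20), LEA18 (0.40, −1.26 to 2.06) and M17 (0.79, −1.66 to 3.23) had wide intervals. With the block on 12 arrays limma called 0 of 8, against 0.0132% of all probe sets, with adjusted p-values of 0.284 to 0.923. For M17 the blocked error of the loading difference was 0.25 (limma adjusted p = 0.405), against 1.16 without the block, and the value lay above 0 in 3 of 3 numbers.

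Set against total RNA of the same genotype, the members fell into unlike patterns, given here as values with no test. AtHIRD11 stood 1.82 above total RNA in wild-type polysomes and 1.13 above it in gcn2 polysomes, and in non-polysomal RNA it stood at −0.36 and −0.83. COR47 had 0.85 and 0.28 in polysomal RNA and −1.07 and −1.54 in non-polysomal RNA. LTI30 and COR15A were below total RNA in wild-type polysomes (−0.72 and −0.38) and above it in gcn2 polysomes (0.55 and 0.76). In non-polysomal RNA LTI30 lay at −1.96 in the wild type and −1.54 in gcn2, the former being the lowest of the 8 genes. COR15B had 0.48 and 1.13 in polysomal RNA. LEA4-5 had 0.18 and 1.00, LEA18 0.53 and 1.65, and M17 −0.62 and 1.10, in the wild type and gcn2 in that order.

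Further genes of the family came from lists compiled with earlier results of these arrays known. Of 10 dehydrin loci 6 were measured, 3 of them outside the set: AT2G21490, AT4G38410 and AT4G39130. Polysomal and non-polysomal RNA differed in 0 of these 3 in the wild type, where limma called 28.5% of all probe sets. AT4G38410, with a wild-type loading of 0.26 (SE 0.16, limma adjusted p = 0.260), was called there with quantile normalization (0.42, limma adjusted p = 0.0480) and when centred on the controls (1.20, limma adjusted p = 0.00112), and its adjusted p over the alternatives is otherwise above 0.05. That centring also called AT4G39130 (0.76, limma adjusted p = 0.0265) and AT2G21490 (0.79, limma adjusted p = 0.0173) in the wild type. In gcn2 it called AT4G39130 (1.10, limma adjusted p = 0.00321) and AT4G38410 (1.00, limma adjusted p = 0.00586), which were not called without it. In gcn2 limma called 1 of 3, AT2G21490, with a loading of 0.40 (SE 0.13, adjusted p = 0.0279), again beside 28.5% of all probe sets. AT2G21490, like AT4G39130, was below the lower quartile on every array, and the call of AT2G21490 was lost without number 1 (limma adjusted p = 0.243). It was lost too in limma without gcn2 polysomal replicate 1 (0.175), gcn2 non-polysomal replicate 2 (0.0748) or replicate 3 (0.0696), with array weights (0.0732), and with only the compared groups fitted (0.107). ERD10, the dehydrin next to COR47, and XERO1, next to LTI30, were not analysed here.

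Of 40 further LEA loci 28 were measured, and 23 of these lay outside the set. In the wild type, limma called 2 of 23 as higher in polysomal RNA and 2 as lower, against 28.5% of all probe sets in either direction. The median loading was 0.04. In gcn2 it called 3 as higher and 1 as lower, again against 28.5% in either direction, with a median of 0.11. DI21 (AT4G15910), a drought-induced LEA gene, ran opposite to COR47 and AtHIRD11. From lowest to highest its wild-type arrays read 5.33, 5.55 and 5.62 in polysomal and 7.94, 8.56 and 8.69 in non-polysomal RNA. Its loading was −2.90 (SE 0.31, limma adjusted p = 1.61e-06) in the wild type and −3.24 (limma adjusted p = 4.93e-07) in gcn2, so that it fell in the polysomes of both genotypes.

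The LEA genes AT2G23120 and AT2G44060 were loaded like COR47 in direction. AT2G23120 had a loading of 1.33 (SE 0.14, limma adjusted p = 1.60e-06) in the wild type and 0.89 (limma adjusted p = 9.42e-05) in gcn2. AT2G44060 had 1.08 (SE 0.15, limma adjusted p = 2.20e-05) and 1.40 (limma adjusted p = 1.43e-06). The other calls hung on single settings or arrays. AT3G22490 had a loading of −0.42 in the wild type (SE 0.14, limma adjusted p = 0.0345), which turned to 0.52 when centred on the controls. The call was lost without wild-type polysomal replicate 1 (0.0847), polysomal replicate 2 (0.137) or non-polysomal replicate 1 (0.172). It was lost too with quantile normalization (0.108), without number 1 in all groups (0.274) and with only the compared groups fitted (0.0723). AT2G03740 had 0.47 in gcn2 (SE 0.13, limma adjusted p = 0.00826) and lost the call without number 1 (0.120) and with only the compared groups fitted (0.0630).

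**Figure D4:**
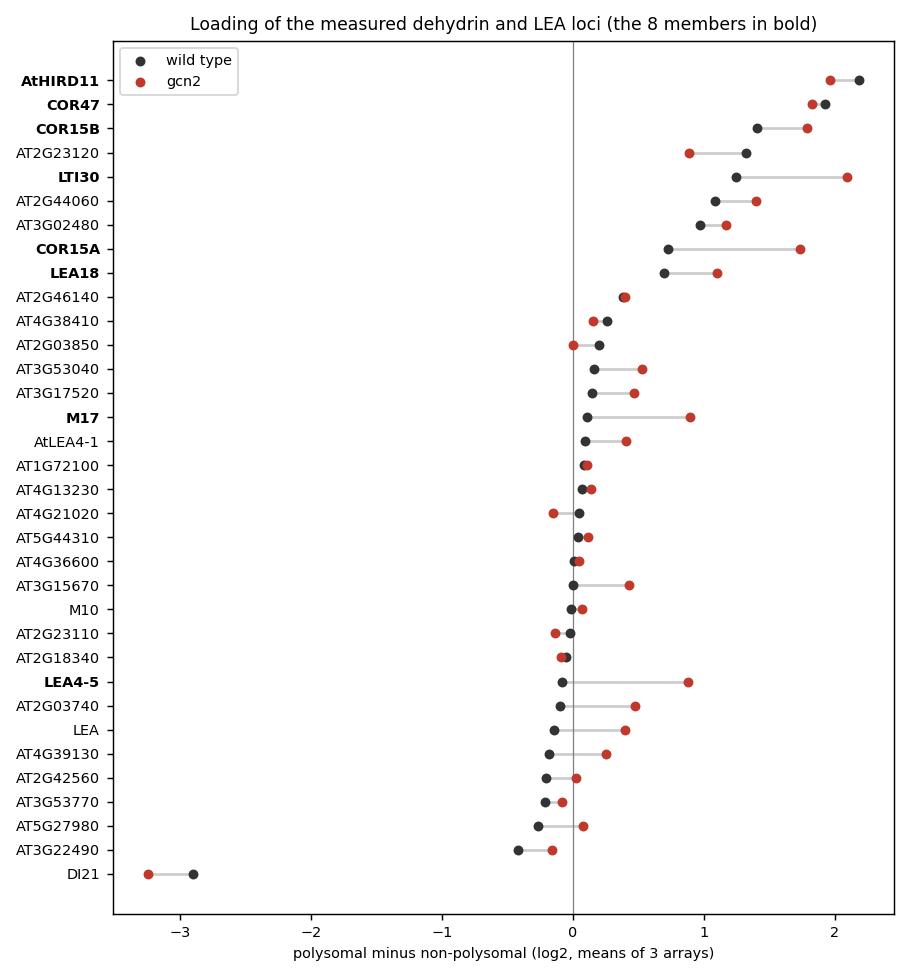
Loading (log2) in wild type and gcn2 of the measured dehydrins and other LEA loci, as means over 3 arrays per fraction, the 8 genes of the set in bold and AT2G21490 under its symbol LEA. DI21 lies lowest in both genotypes (−2.90 and −3.24), and AT2G23120 and AT2G44060 are the highest of the other loci in the wild type.

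Between the genotypes, limma without the block called 0 of the 3 other dehydrins and 0 of the 23 other LEA genes in polysomal, non-polysomal or total RNA or in loading. Of all probe sets it called 0.022% in polysomal, 0.0791% in non-polysomal and 0.0352% in total RNA, and 0.0044% in loading. In polysomal RNA 20 of the 23 had a difference above 0, with a median of 0.16, as had 55.4% of all probe sets, with a median of 0.02. Centred on the BioB and BioC controls, 9 of the 23 and 8.68% of all probe sets were above 0, and the medians were −0.09 and −0.23. Several of the 23 read near the bottom of the scale. AT2G18340, AT4G21020, AT5G44310 and AT3G53770 were below the lower quartile on every array. AT3G02480, an LEA gene, differed most, by 2.06 (SE 0.80, limma adjusted p = 0.900) in polysomal and 1.86 in non-polysomal RNA. It read 6.86, 4.74 and 4.48 in wild-type polysomal RNA and 8.59, 6.94 and 6.71 in gcn2 polysomal RNA, with replicate 1 the highest in both, as in M17. Its pairs differed by 1.74, 2.20 and 2.23 in polysomal and 1.97, 1.70 and 1.90 in non-polysomal RNA. Of all probe sets the blocked limma fit of 12 arrays called 0.558% in polysomal and 1.89% in non-polysomal RNA. It called 1 gene of the 23, AT3G02480, with an adjusted p of 1.80e-06 in polysomal and 4.07e-06 in non-polysomal RNA. AT3G02480 passed without any 1 number too (3 of 3 in each fraction), in fits whose share of all probe sets called is not given. Its adjusted p over all alternatives reached 1.000 in polysomal and 0.947 in non-polysomal RNA. In total RNA its pairs differed by −1.60, 0.83 and −0.49. M10, the seed LEA gene next to M17 and picked out for that position, read 3.63 ± 0.16 in wild-type and 3.55 ± 0.04 in gcn2 polysomal RNA (SD, n = 3), a difference of −0.07 (SE 0.14, limma adjusted p = 0.990). By size AtLEA4-1 (AT1G32560) came next in polysomal RNA, with 0.82 (SE 0.36, limma adjusted p = 0.906), a gene singled out after its value was seen. The others named by their moderated statistic were AT3G15670 (0.68, limma adjusted p = 0.617), AT3G17520 (0.70, limma adjusted p = 0.761) and AT3G53040 (0.53, limma adjusted p = 0.906). Of 17 loci of the cold and CBF regulon only STZ was measured, with −0.26 in polysomal, −0.20 in non-polysomal and −0.10 in total RNA (0 of 1 called by limma in each), and of 11 loci of abscisic acid signalling 0 were measured.

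Markers of other tissues were read beside these results, because M17 and other LEA genes are seed genes. Of 8 storage protein and oleosin genes in a first seed list 0 were measured, and of 12 in a list added later 4 were: PAP85, AT2G28490, OLEO3 and AT3G01570. Their summed log2 level had a median of 5.53 (5.26 to 5.83) in wild-type and 6.08 (5.91 to 7.03) in gcn2 polysomal RNA. In non-polysomal RNA it was 5.67 (5.62 to 5.99) and 5.67 (5.53 to 6.13), and in total RNA 5.58 (5.48 to 5.93) and 5.85 (5.48 to 6.17), wild type first. All 4 had a difference above 0 in polysomal RNA, with a median of 0.60 (3 of 4 and 0.34 when centred on the controls). Limma without the block called 0 of 4, against 0.022% of all probe sets, and with it 1 of 4, against 0.558%. AT2G28490, a cupin of the seed storage protein family, had a mean of 3.19 in wild-type and 4.78 in gcn2 polysomal RNA, a difference of 1.59 that passed in the blocked limma fit (SE 0.20, adjusted p = 6.98e-04) and was 0.06 in non-polysomal RNA. The other 3 did not pass in the blocked limma fit: PAP85 differed by 0.65 (adjusted p = 0.126), AT3G01570 by 0.54 (0.337) and OLEO3 by 0.19 (0.719). The part of seed material in the results for M17, LEA18 and AT3G02480 was not tested.

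The green-tissue marker RCA, the Rubisco activase gene and 1 of 6 listed, had group means of 12.63 to 13.92, above the lower quartile of every array. The root marker PYK10, 1 of 5 listed, was also read clearly, with group means of 8.36 to 10.99. Between the genotypes it differed by −0.17 in polysomal, 0.42 in non-polysomal and 0.24 in total RNA (SE 0.20 each), and limma called none of these. In non-polysomal RNA its gcn2 arrays (8.70 to 8.87) lay above all wild-type arrays (7.88 to 8.61). How far root material was present was not tested.

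The transcripts whose pattern over the 18 arrays was most like that of a member were sought among about 1550 other probe sets with a gene symbol, for the 3 members with a mean above the median of all probe sets. For COR47 the highest Pearson correlations were with RD2 (0.956), MOB1-like (0.946) and SEC22 (0.939). For AtHIRD11 they were TIL (0.928), RD2 (0.927) and VPS2.1 (0.900), so that RD2 stood in the first 3 of both dehydrins. For COR15B they were PAC (0.917), HTB2 (0.911) and GRXC2 (0.910). The 18 arrays share their 6 groups, so that differences between RNA types and genotypes enter every correlation.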

How the data were processed

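Sample titles gave each array's group and replicate number. The deposited table holds log2 expression values per probe set, made by the authors. Per the submitters' processing notes the tools include RMA, affy and MAS5, without roles or versions. The order of summarization, background correction and normalization is therefore unknown here, and there are no detection calls. Of 22810 probe sets 64 controls were left out. The platform annotation gave exactly 1 gene for 13513 of the 22746 tested probe sets, several for 503 and none listed for 8730; 13436 were matched to RefSeq (TAIR10.1) for names and gene order. No coordinates or sequences were used.

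A group-means model of all 18 arrays was fitted with limma 3.58.1 under R 4.3.3, with empirical Bayes moderation (12 residual and 6.02 prior degrees of freedom), two-sided tests and Benjamini-Hochberg adjustment over all 22746 probe sets at 0.05, without a filter. It was tested on simulated data. Errors of differences are moderated standard errors. Members and gene lists were chosen with earlier results of these data known. Named were all 8 members, from each list up to 4 loci per comparison by the moderated statistic, and the 3 most correlated probe sets of members above the median level; seed genes and AT3G02480's arrays were added after their values were seen. A locus with several probe sets was represented by the one with the highest mean.

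The pairing rule was a correlation of deviations over 0.1 for every pair: it held for the fraction groups (18 of 18) and for 1 of 3 correlations between the total RNA groups (0.0157 to 0.429). The labels do not say that replicates were separate cultures, so the p-values cover only the spread between these arrays, which may be technical. A permutation test of 3 against 3 arrays cannot go below 0.1. The number of arrays limits the precision. Alternatives were quantile normalization, centring on spike-in controls, a filter on dim probe sets, the groups compared alone, a trended and robust prior, array weights, the replicate block and leaving out arrays.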

Additional observations from a re-analysis of the deposited data

How the results depend on the processing

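In polysomal RNA the number of the 8 genes that limma called between gcn2 and wild type was 0 in the fit without a block. It was 1 when arrays were centred on the BioB and BioC controls (M17, 2.81, adjusted p = 0.0341) and 2 with the replicate block on 18 arrays (COR15A and LEA4-5, adjusted p = 0.0353 each). It was 3 with array weights (COR15A 1.36, LEA4-5 1.07 and M17 3.20, adjusted p = 0.00897, 0.00485 and 0.0377) and 4 with the replicate block on the 12 fraction arrays. That last fit uses the pairing of the fraction arrays but treats the fractions of a gradient as independent. In non-polysomal RNA it was 0, and 1 with the replicate block on 12 arrays. The block changed no call of the 8 genes in total RNA or in the loading difference. In fits without the block, all counts were 0 when any 1 array was left out, when only the compared groups were fitted, and without number 1. The filter on dim probe sets kept all 8 genes among 17059 probe sets. Of all probe sets in polysomal RNA, limma called 0.0659% with the block on 18 arrays, 0.615% with array weights and 0.558% with the block on 12. The share called when centred on the controls is not given here, so nothing is read from the 1 call there.

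The median loading of the 8 genes ranged from 0.61 to 1.23 in the wild type and from 1.64 to 1.81 in gcn2 when single arrays were left out. Leaving out 1 array unmatches the fractions of its gradient. Centring on the controls gave 1.93 and 2.61. That centring turned the direction of wild-type loading for AT4G39130 (0.76), AT2G21490 (0.79), AT3G22490 (0.52) and STZ (0.79), since it shifts all transcripts of a fraction together. All of these but AT3G22490 were then called by limma. With array weights the contrast of polysomal against total RNA passed for COR15A (1.58, adjusted p = 0.0368 in limma). The share of all probe sets called with those weights is not given for that contrast. Between the genotypes in polysomal RNA it was 0.615% with the weights and 0.022% without them. The causes of the other changes were not tested. LEA18 and M17 read near the bottom of the scale in the wild type, where differences may be understated, and 3 arrays per group limit the precision.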
